A study of Homo sapiens with 6 samples.

Results

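The genes described here are the 2 plasminogen activators, PLAU and PLAT, the urokinase receptor gene PLAUR and the serpin gene SERPINE2. They were taken by symbol: 8 of the 54675 probe sets on the array were annotated with 1 of these 4 names alone, and the 4 genes stand among 19775 that had at least 1 such probe set. PLAU had 2 probe sets, PLAUR 3, PLAT 1 and SERPINE2 2. The probe set with the highest average over the 6 arrays stands for its gene, and the others are given beside it.

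RNA was measured on 6 Affymetrix arrays hybridised with CaSki cells, a long-established human line from a cervical squamous carcinoma with papillomavirus DNA in its genome. Cells of 3 samples received 2 ng/mL of recombinant TGF-β1, and cells of 3 had medium without it; all 6 grew in RPMI1640 with serum and antibiotics. The labels do not state how long the cells were treated or whether a group's 3 samples were separate cultures. The p-values therefore measure the spread between these samples, and this spread may be technical. The study asked how expression changed with TGF-β1 and whether TGF-β pathway genes were among those that changed.

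Plasminogen circulates as an inactive precursor and is cut to the protease plasmin by either of its activators, urokinase (PLAU) or tissue plasminogen activator (PLAT). The urokinase receptor, held to the outer membrane by a lipid anchor, concentrates urokinase at the cell surface, where plasmin forms next to fibrin, matrix proteins and latent metalloproteases. Serpins trap the activators in inactive complexes, and SERPINE2, also called protease nexin-1, traps urokinase, tissue plasminogen activator, plasmin and thrombin. In squamous carcinomas urokinase and its receptor are known at the invading edge of the tumour.

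The promoter windows of the genes that moved most, PLAU and SERPINE2, and of PLAUR, which did not pass the test, are shown first so that their annotated starts can be compared. A PLAT window is not reported here. Which start gave the RNA measured on these arrays was not tested. The windows shown come from RefSeq on GRCh38.p14 and run from 250 bases before a transcription start to 50 after it. PLAU and SERPINE2 each have 2 such windows in the table, numbered here from the upstream start, and PLAUR has 1. In the PLAU and PLAUR windows capitals mark CAGAC on either strand, the core bound by SMAD proteins, and TGANTCA, the AP-1 site. In the second SERPINE2 window capitals mark a run of 17 bases that occurs 3 times.
PLAU window 1, chr10:73910360-73910659, plus strand: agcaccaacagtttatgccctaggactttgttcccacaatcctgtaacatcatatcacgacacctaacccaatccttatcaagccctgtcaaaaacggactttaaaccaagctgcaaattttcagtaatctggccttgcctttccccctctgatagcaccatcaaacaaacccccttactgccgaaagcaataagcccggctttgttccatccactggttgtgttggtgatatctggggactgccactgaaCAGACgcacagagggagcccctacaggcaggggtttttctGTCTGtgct
PLAU window 2, chr10:73910882-73911181, plus strand: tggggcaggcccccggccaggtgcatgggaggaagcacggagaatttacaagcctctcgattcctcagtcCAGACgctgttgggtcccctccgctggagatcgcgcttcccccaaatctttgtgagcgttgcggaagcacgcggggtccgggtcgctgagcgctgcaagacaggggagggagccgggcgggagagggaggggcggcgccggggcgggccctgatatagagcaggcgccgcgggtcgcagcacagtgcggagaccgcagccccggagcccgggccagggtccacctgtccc
PLAUR window, chr19:43670120-43670419, minus strand: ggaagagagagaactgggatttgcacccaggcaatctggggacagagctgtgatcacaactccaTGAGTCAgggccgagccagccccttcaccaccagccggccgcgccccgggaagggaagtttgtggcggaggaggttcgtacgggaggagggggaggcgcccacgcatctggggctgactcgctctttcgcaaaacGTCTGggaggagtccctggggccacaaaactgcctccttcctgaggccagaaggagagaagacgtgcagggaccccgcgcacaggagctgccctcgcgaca
SERPINE2 window 1, chr2:224038591-224038890, minus strand: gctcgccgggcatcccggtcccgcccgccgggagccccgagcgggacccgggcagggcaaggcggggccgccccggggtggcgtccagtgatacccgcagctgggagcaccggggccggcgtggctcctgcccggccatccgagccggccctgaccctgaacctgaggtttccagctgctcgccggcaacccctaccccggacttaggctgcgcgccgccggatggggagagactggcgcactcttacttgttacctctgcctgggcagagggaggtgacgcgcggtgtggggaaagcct
SERPINE2 window 2, chr2:224031429-224031728, minus strand: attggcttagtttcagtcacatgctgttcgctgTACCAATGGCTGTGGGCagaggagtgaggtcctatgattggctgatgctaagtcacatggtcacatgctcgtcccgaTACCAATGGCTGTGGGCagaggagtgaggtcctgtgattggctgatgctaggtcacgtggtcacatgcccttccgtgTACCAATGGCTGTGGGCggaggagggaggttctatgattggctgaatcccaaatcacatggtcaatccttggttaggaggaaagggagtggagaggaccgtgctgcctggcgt

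PLAU window 1 held CAGAC at base 2 after the start and its reverse complement GTCTG at base 42, and window 2 held it once, at -180. The PLAUR window held GTCTG at -51 and the only TGANTCA of the 5 windows, TGAGTCA at -186. Neither SERPINE2 window held either motif. Among all 35116 RefSeq windows of this length 45.3% held CAGAC on at least 1 strand and 7.71% held TGANTCA, so the first of these is common. GGGCGG, the Sp1 site, occurred 3 times in PLAU window 2, 2 times in SERPINE2 window 1 and once in SERPINE2 window 2, counting both strands, and was held by 44.95% of all windows. None of the matches overlapped another. They describe letters and do not show binding.

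SERPINE2 window 2 was built differently from the rest. The run TACCAATGGCTGTGGGC began at -217, -140 and -63 and carried a CCAAT box each time, and the window held CCAAT on either strand 7 times in all. Of all windows 3.26% held CCAAT at least 3 times, and 0.877% held any run of 17 bases 3 times without overlap. The repeat was looked for after the letters of the window had been seen. GC content was 54.0% in this window and 73.7% in SERPINE2 window 1, 48.7% in PLAU window 1 and 70.0% in PLAU window 2, and 64.0% in the PLAUR window, against a median of 58.7% over all windows.

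With TGF-β1, PLAU and SERPINE2 rose about as far as each other, PLAT fell by a smaller amount, and PLAUR did not pass the test. Thus 3 of the 4 genes were called at an adjusted p below 0.05 (limma, adjusted over all 19775 genes), 2 higher and 1 lower with treatment, where 8.5% of all genes were called, 4.03% higher and 4.47% lower. All 4 genes lie above the median level, where calls are more frequent. In a fit of those 9887 genes alone 2553 were called, and the calls of the 4 genes stayed the same. By the size of the difference PLAU was number 11 and SERPINE2 number 14 from the top of the 19775 genes, and PLAT was number 239 from the bottom. In a bulk culture, fewer cells expressing a gene and less RNA per cell cannot be told apart.

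**Figure D1:**
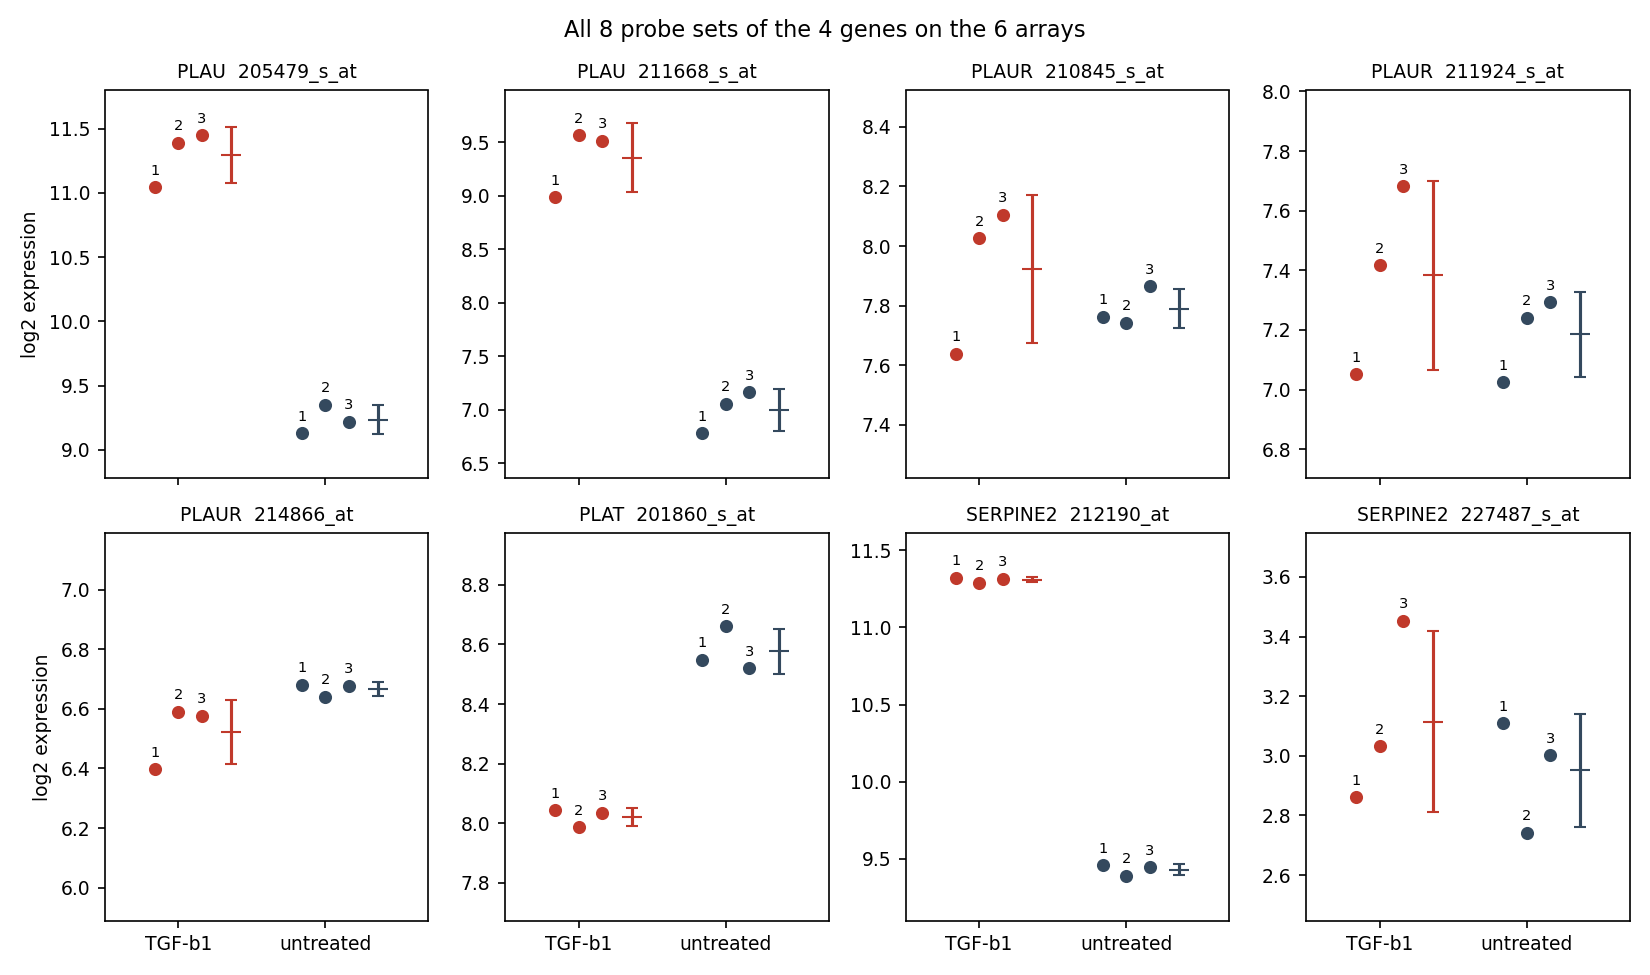
Log2 expression (vertical axis) of the 8 probe sets of PLAU, PLAUR, PLAT and SERPINE2 on the 3 TGF-β1 arrays (red, left) and the 3 untreated arrays (dark blue, right). Numbers beside the points are array numbers, and bars give the mean and SD (n = 3); each panel has its own axis, so heights are not comparable between probe sets.

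PLAU encodes urokinase, the activator that works at the cell surface. Its probe set 205479_s_at read 11.04, 11.39 and 11.45 (log2) on TGF-β1 arrays 1, 2 and 3, against 9.13, 9.35 and 9.22 on untreated arrays 1, 2 and 3. All treated values lay above all untreated ones, with a gap of 1.69 between the groups, and array 1 was the lowest in each group. The mean was 11.3 ± 0.218 with TGF-β1 and 9.23 ± 0.112 without (SD, n = 3 each), a difference of 2.06 ± 0.12 (SE) or 4.17-fold, with a 95% interval from 3.45-fold to 5.03-fold and a limma adjusted p of 5.5e-05.

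The second PLAU probe set, 211668_s_at, gave the same direction. It read 8.98, 9.57 and 9.51 with TGF-β1, against 6.78, 7.05 and 7.16 without, a difference of 2.36 ± 0.17 (SE) or 5.12-fold (limma adjusted p = 1.9e-04 over the 54613 non-control probe sets, of which 3.24% were called). Array 1 was again the lowest of each group. Both names carry the suffix _s_at, which Affymetrix gives to probe sets that match several transcripts. RefSeq places the long non-coding gene C10orf55 over the PLAU locus. Its own probe set read 2.997 ± 0.224 with TGF-β1 and 2.94 ± 0.185 without (SD, n = 3 each), below the median of every array, and did not pass (difference 0.06, limma adjusted p = 0.84).

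SERPINE2 rose with little spread. Its probe set 212190_at read 11.32, 11.29 and 11.32 on the treated arrays, against 9.46, 9.39 and 9.44 on the untreated ones. The groups were 1.83 apart, and the largest distance between arrays of 1 group was far smaller than this. The means were 11.3 ± 0.0164 with TGF-β1 and 9.43 ± 0.0368 without (SD, n = 3 each), a difference of 1.88 ± 0.07 (SE) or 3.68-fold, with a 95% interval from 3.31-fold to 4.09-fold and a limma adjusted p of 9.8e-06. Among the 9887 genes above the median level only 3.2% had a smaller treated SD, whereas 93.5% had a smaller treated SD than PLAU.

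The other SERPINE2 probe set did not show the rise. 227487_s_at read 2.86, 3.03 and 3.45 with TGF-β1, against 3.11, 2.74 and 3.002 without, so the groups overlapped, and the difference was 0.16 ± 0.16 (SE, limma adjusted p = 0.67 over probe sets). Its mean of 3.03 lay below the medians of the arrays, which were 4.15 to 4.18. When the 2 probe sets were averaged, the SERPINE2 difference was 1.02 on the log2 scale, or 2.03-fold, and still passed (limma adjusted p = 5.7e-04).

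PLAT, which encodes the activator best known for dissolving fibrin clots, moved the other way. Its only probe set, 201860_s_at, read 8.04, 7.99 and 8.04 with TGF-β1, against 8.55, 8.66 and 8.52 without. Every treated value was below every untreated one, by at least 0.48. The means were 8.02 ± 0.0312 with TGF-β1 and 8.58 ± 0.0746 without (SD, n = 3 each), a difference of -0.55 ± 0.07 (SE), 1.47-fold lower with a 95% interval from 1.31-fold to 1.65-fold and a limma adjusted p of 0.0032. Tested against a fold of 1.2 in place of no change (limma's treat), PLAT no longer passed (adjusted p = 0.0879), while PLAU and SERPINE2 did (adjusted p = 9.8e-05 and 1.6e-05).

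PLAUR, the receptor that holds urokinase at the membrane, was not called. Its brightest probe set, 210845_s_at, read 7.64, 8.03 and 8.10 with TGF-β1, against 7.76, 7.74 and 7.86 without. Treated arrays 2 and 3 were above all untreated arrays and treated array 1 was below them all, so the groups overlapped. The means were 7.92 ± 0.249 with TGF-β1 and 7.79 ± 0.0655 without (SD, n = 3 each), a difference of 0.13 ± 0.12 (SE, limma adjusted p = 0.57). The 95% interval of this difference ran from -0.15 to 0.41, and its upper end is a rise of 1.33-fold.

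The other PLAUR probe sets differed in sign. 211924_s_at read 7.05, 7.42 and 7.68 with TGF-β1, against 7.02, 7.24 and 7.29 without, a difference of 0.20 ± 0.16 (SE, limma adjusted p = 0.59 over probe sets). 214866_at, the only PLAUR probe set without a shared-sequence suffix, read 6.397, 6.59 and 6.58 with TGF-β1, against 6.68, 6.64 and 6.68 without. Here all treated values were below the untreated ones, but the difference of -0.14 ± 0.09 (SE) did not pass (limma adjusted p = 0.45 over probe sets). The direction for PLAUR therefore depended on the probe set, and none of the 3 passed.

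Treated array 1 was the lowest array of its group on 6 of the 8 probe sets, those of PLAU and PLAUR and the dim one of SERPINE2. Untreated array 1 was the lowest of its group for both PLAU probe sets and PLAUR 211924_s_at. It was the highest for PLAUR 214866_at and both SERPINE2 probe sets, and lay in between for PLAT and PLAUR 210845_s_at. How often these arrays were lowest over all probe sets was not counted. The arrays numbered 1 also stood highest in the ratio of 3' to 5' signal at the GAPDH and ACTB controls, which reflects RNA integrity, at 1.15 for the treated and 1.19 for the untreated array (log2), against 0.690 and 0.735 on the other treated and 0.863 and 0.770 on the other untreated arrays. With this ratio as a covariate the differences were 2.01 for PLAU, 1.88 for SERPINE2, -0.55 for PLAT and 0.08 for PLAUR. Without both arrays numbered 1 they were 2.13, 1.89, -0.58 and 0.26, and the calls stood as before, with limma adjusted p-values of 0.0023, 0.0023, 0.0393 and 0.18. The part of RNA integrity in the low values of treated array 1 was not tested.

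**Figure D2:**
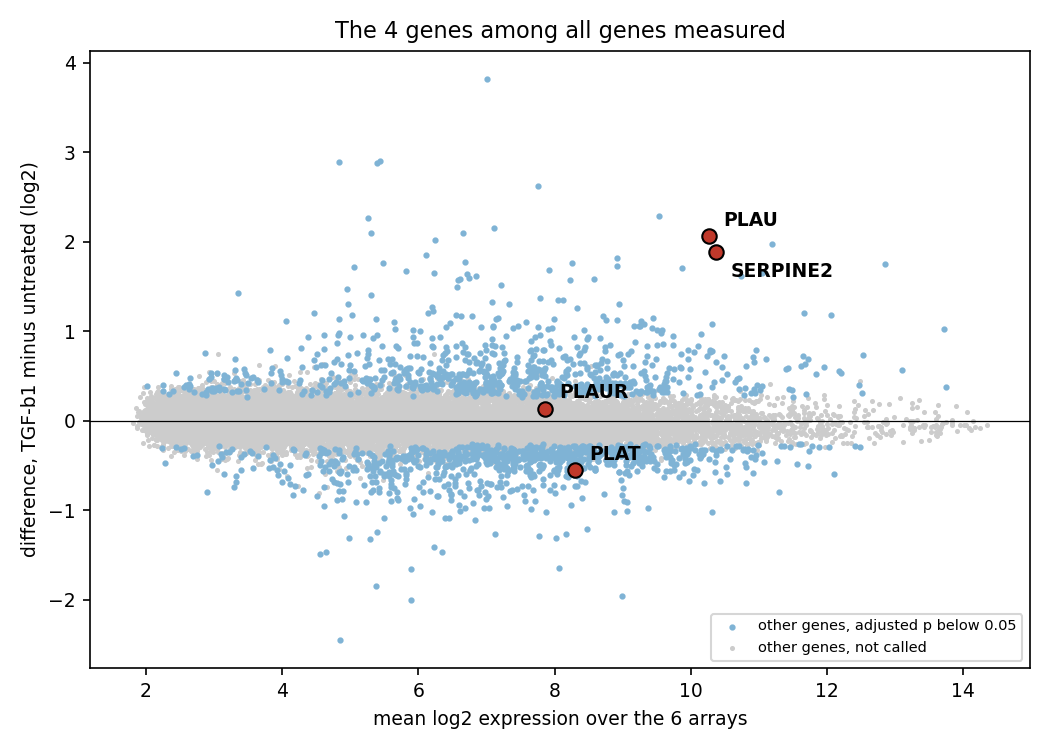
Difference between TGF-β1 and untreated cells (log2, vertical axis) against mean log2 expression over the 6 arrays (horizontal axis) for all 19775 genes, with called genes in blue, uncalled genes in grey and the 4 genes described here in red. PLAU and SERPINE2 lie together near the top at mean levels of 10.3 and 10.4, PLAT lies below 0 among called genes at 8.30, and PLAUR lies among uncalled genes at 7.86.

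PLAU and SERPINE2 were among the brighter probe sets as well as the larger rises. Of the 19775 genes, 96.3% had a lower mean over the 6 arrays than PLAU and 96.6% a lower one than SERPINE2, against 84.5% for PLAT and 80.0% for PLAUR. These ranks describe probe set signals, which do not order the amounts of the transcripts.

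Whether the genes changed by unequal amounts was asked within arrays, over 3 pairs, from the difference of their log2 values set to 0 at the untreated mean. For PLAU less SERPINE2 this stood at -0.08, 0.29 and 0.33 on TGF-β1 arrays 1, 2 and 3, against -0.13, 0.16 and -0.03 on untreated arrays 1, 2 and 3, and the groups overlapped. The change was 0.18 (exact two-sided permutation test, p = 0.3, adjusted p = 0.3), a test whose smallest possible p with 3 arrays against 3 is 0.1. The change came to 0.31 without TGF-β1 array 1 and to 0.11 without TGF-β1 array 3 or without untreated array 1. It came to 1.19 when the probe sets of a gene were averaged, and the exact permutation p was then 0.1. The second probe set of each gene then enters, which took PLAU from 2.06 to 2.21 and SERPINE2 from 1.88 to 1.02.

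PLAU less PLAUR stood at 1.96, 1.92 and 1.90 on the treated arrays, against -0.08, 0.17 and -0.09 on the untreated ones, a change of 1.93. PLAU less PLAT stood at 2.34, 2.75 and 2.75 on the treated arrays, against -0.08, 0.03 and 0.04 on the untreated ones, a change of 2.61. In both pairs the groups were well apart, and each gave p = 0.1 in the exact two-sided permutation test (adjusted p = 0.15), again the smallest that the design allows. PLAU less PLAUR was nearly level over the treated arrays, since array 1 was low for both genes.

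The genes most like each of the 4 were sought among the 9887 genes above the median level, by the root mean square difference over the 6 arrays after each gene was set to 0 at its untreated mean. Nearest to PLAU were CCN2, a matricellular protein gene, at 0.0741, PMEPA1, a feedback inhibitor of TGF-β signalling, at 0.131 and ABCA1, a cholesterol exporter, at 0.181. CCN2 read 6.11, 6.53 and 6.44 with TGF-β1, against 4.24, 4.28 and 4.26 without, so array 1 was the lowest treated array there too. The level filter used the mean over all 6 arrays, and the median level was 5.31. CCN2 and ABCA1 averaged 4.26 and 5.24 on the untreated arrays, so both entered the pool only through their treated values. SERPINE2 was number 6 in nearness to PLAU, at 0.202. Nearest to SERPINE2 were TP53I3, a quinone oxidoreductase gene, at 0.0818, PMEPA1 at 0.0848 and ABCA1 at 0.0995, and PLAU was number 17.

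PLAT and PLAUR had other neighbours. Nearest to PLAT were GGCT, a glutathione cycle enzyme, at 0.0400, HSPE1, a mitochondrial chaperonin, at 0.0402 and SLC18B1, a transporter, at 0.0434, all 3 of them called lower, with differences of -0.51, -0.55 and -0.55 and limma adjusted p-values of 0.0034, 0.0029 and 0.0034. Nearest to PLAUR were ZDHHC4, a palmitoyltransferase, at 0.0302, BSG, which encodes the surface glycoprotein basigin, at 0.0363 and PI4KA, a lipid kinase, at 0.0395. Each of these 3 was lowest on treated array 1 and highest on treated array 3 among the 6 arrays, as PLAUR was, and none was called (limma adjusted p = 0.51, 0.47 and 0.74).

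**Figure D3:**
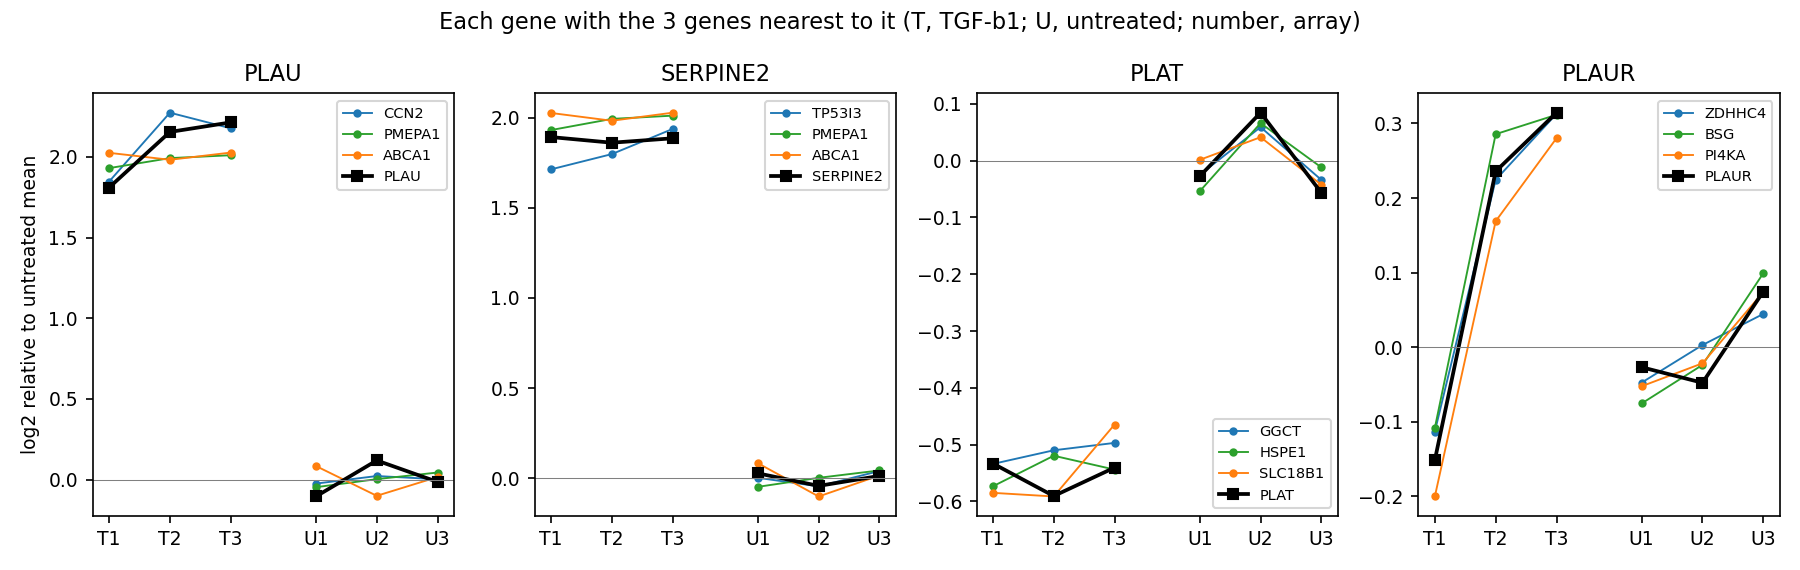
Log2 value relative to the untreated mean (vertical axis) of PLAU, SERPINE2, PLAT and PLAUR (black squares) and of the 3 genes nearest to each, on TGF-β1 arrays T1 to T3 and untreated arrays U1 to U3; each panel has its own vertical scale. The treated values of PLAU, SERPINE2 and PLAT stand clear of their untreated values, and those of PLAUR run from below to above them.

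The wider plasminogen system was described with 75 genes in 7 lists, of which 70 could be matched to a singly named probe set and 5 were not analysed here. Of the 70, 10 were higher with TGF-β1, 5 were lower and 55 did not pass, which is 14.3% higher and 7.14% lower against 4.03% and 4.47% of all genes. The median difference was 0.05 (log2), against -0.003 over all genes. The treated and untreated values did not overlap for 26 of the 70, or 37.1%, against 29.2% of all genes. Of the 70, 42 lay above the median level, as did 9887 of all 19775 genes. The lists were chosen with earlier results of these data known, so these shares are descriptive only.

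Plasminogen and the surface proteins that bind it did not pass, 0 of 5 in either direction, with a median difference of 0.09. PLG itself read 4.42 ± 0.107 with TGF-β1 and 4.45 ± 0.0446 without (SD, n = 3 each), below the median level of all genes, 5.31. Its dimmer probe sets averaged 3.01 and 2.46 over the arrays. The binding proteins were bright: ANXA2, a phospholipid-binding protein, averaged 14.10 with TGF-β1 and 14.01 without, and its partner S100A10 averaged 13.6 with TGF-β1 and 13.5 without. ENO1, a glycolytic enzyme that also binds plasminogen at the surface, averaged 12.86 with TGF-β1 and 12.98 without.

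Of 9 other inhibitors of the activators or of plasmin that were listed, only 6 were measured, so this group is incomplete. Of these 6, 0 passed, and 1 lay above the median level of all genes. That was TFPI2, a Kunitz inhibitor of plasmin, at 6.53 ± 0.151 with TGF-β1 and 6.59 ± 0.0900 without (SD, n = 3 each, difference -0.06, limma adjusted p = 0.76). SERPINA5, which inhibits urokinase, and A2M, a broad protease trap, had differences of -0.20 and 0.11 at mean levels of 4.38 and 3.69. The dimmer probe sets of TFPI2 and A2M differed the other way, by 0.17 and -0.13. None of the 9 genes for proteases that activate pro-urokinase and for their inhibitors passed either. The brightest were SPINT2, an inhibitor of such proteases, with a difference of 0.003, and the cathepsin genes CTSL and CTSB, with differences of 0.06 and 0.16. The dimmer CTSB probe sets differed by 0.28, 0.25, 0.28 and 0.39.

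Among partners and clearance receptors of urokinase and its receptor, 4 of 18 rose and 1 fell, and the 4 were integrin chains. ITGAV, which pairs in vitronectin receptors, rose 1.65-fold, ITGA5, which pairs with ITGB1 to bind fibronectin, 1.64-fold, ITGB5 1.49-fold and ITGB1 1.32-fold (limma adjusted p = 0.0011, 0.0037, 0.0034 and 0.0141). The ITGB1 call was lost without untreated array 2 or 3 (adjusted p = 0.0629 and 0.0553). SORL1, a sorting receptor that can take up urokinase complexes, was 1.71-fold lower, at 6.49 ± 0.129 with TGF-β1 and 7.27 ± 0.176 without (SD, n = 3 each, limma adjusted p = 0.0046). LRP1, the main clearance receptor of activator and serpin complexes, differed by 0.15 (limma adjusted p = 0.43), and VLDLR, IGF2R and ITGA3 differed by -0.10, 0.04 and 0.33 without passing.

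Of 11 genes whose products plasmin or the activators process, 6 rose and 0 fell, with a median difference of 0.32. MMP2, a gelatinase, rose 3.14-fold, from the brightest of its 3 probe sets, with 7.06 ± 0.128 with TGF-β1 and 5.41 ± 0.0987 without (SD, n = 3 each, limma adjusted p = 4.5e-05). PDGFC, a growth factor gene whose latent product tissue plasminogen activator cuts, rose 2.16-fold, at 9.82 ± 0.00923 with TGF-β1 and 8.71 ± 0.0199 without (SD, n = 3 each, limma adjusted p = 6.0e-05). PDGFD, whose product urokinase cuts, rose 1.66-fold, and its dimmer probe set differed by 0.05 at a level of 3.84. The collagenase MMP13 rose 2.14-fold and the gelatinase MMP9 1.78-fold (limma adjusted p = 0.0048 and 0.0132). The MMP9 call was lost without untreated array 2 or 3 (adjusted p = 0.0541 and 0.0555).

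MMP14, the membrane-bound protease that activates MMP2, rose 1.21-fold on its brightest probe set, with a limma adjusted p of 0.0417, and this call was lost whichever array was left out, with adjusted p-values up to 0.142. Its 3 other probe sets differed by 0.45, 0.78 and 0.11. MMP1, MST1 and F2R, the thrombin receptor gene, did not pass, with differences of 0.32, -0.17 and -0.004.

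On the thrombin side, where SERPINE2 also acts, 3 of 8 genes fell and 0 rose. TFPI, the inhibitor of the tissue factor pathway, was 2.51-fold lower, at 4.63 ± 0.104 with TGF-β1 and 5.95 ± 0.0477 without (SD, n = 3 each, limma adjusted p = 6.8e-05), and its 4 other probe sets also had negative differences, between -1.11 and -0.10. THBD, which encodes thrombomodulin, was 1.68-fold lower (limma adjusted p = 0.0044). PROCR, the protein C receptor, was 1.22-fold lower (limma adjusted p = 0.0465), and this call too was lost whichever array was left out, with adjusted p-values up to 0.157. F3, which encodes tissue factor itself, averaged 11.4 with TGF-β1 and 11.5 without and did not pass (difference -0.09), and neither did HTRA1 or F2, at 0.17 and 0.10.

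Of 13 genes that share the LY6/uPAR domain with the urokinase receptor, LY6K was the single call. It was 1.601-fold lower, at 10.1 ± 0.0668 with TGF-β1 and 10.8 ± 0.0366 without (SD, n = 3 each, limma adjusted p = 0.0011), and its dim second probe set differed by -0.30. CD59, an inhibitor of complement, LYPD3, a keratinocyte surface protein, and LY6E differed by 0.24, -0.19 and 0.18 without passing. The dimmer CD59 probe sets differed by 0.15, 0.23, 0.52 and 0.59.

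**Figure D4:**
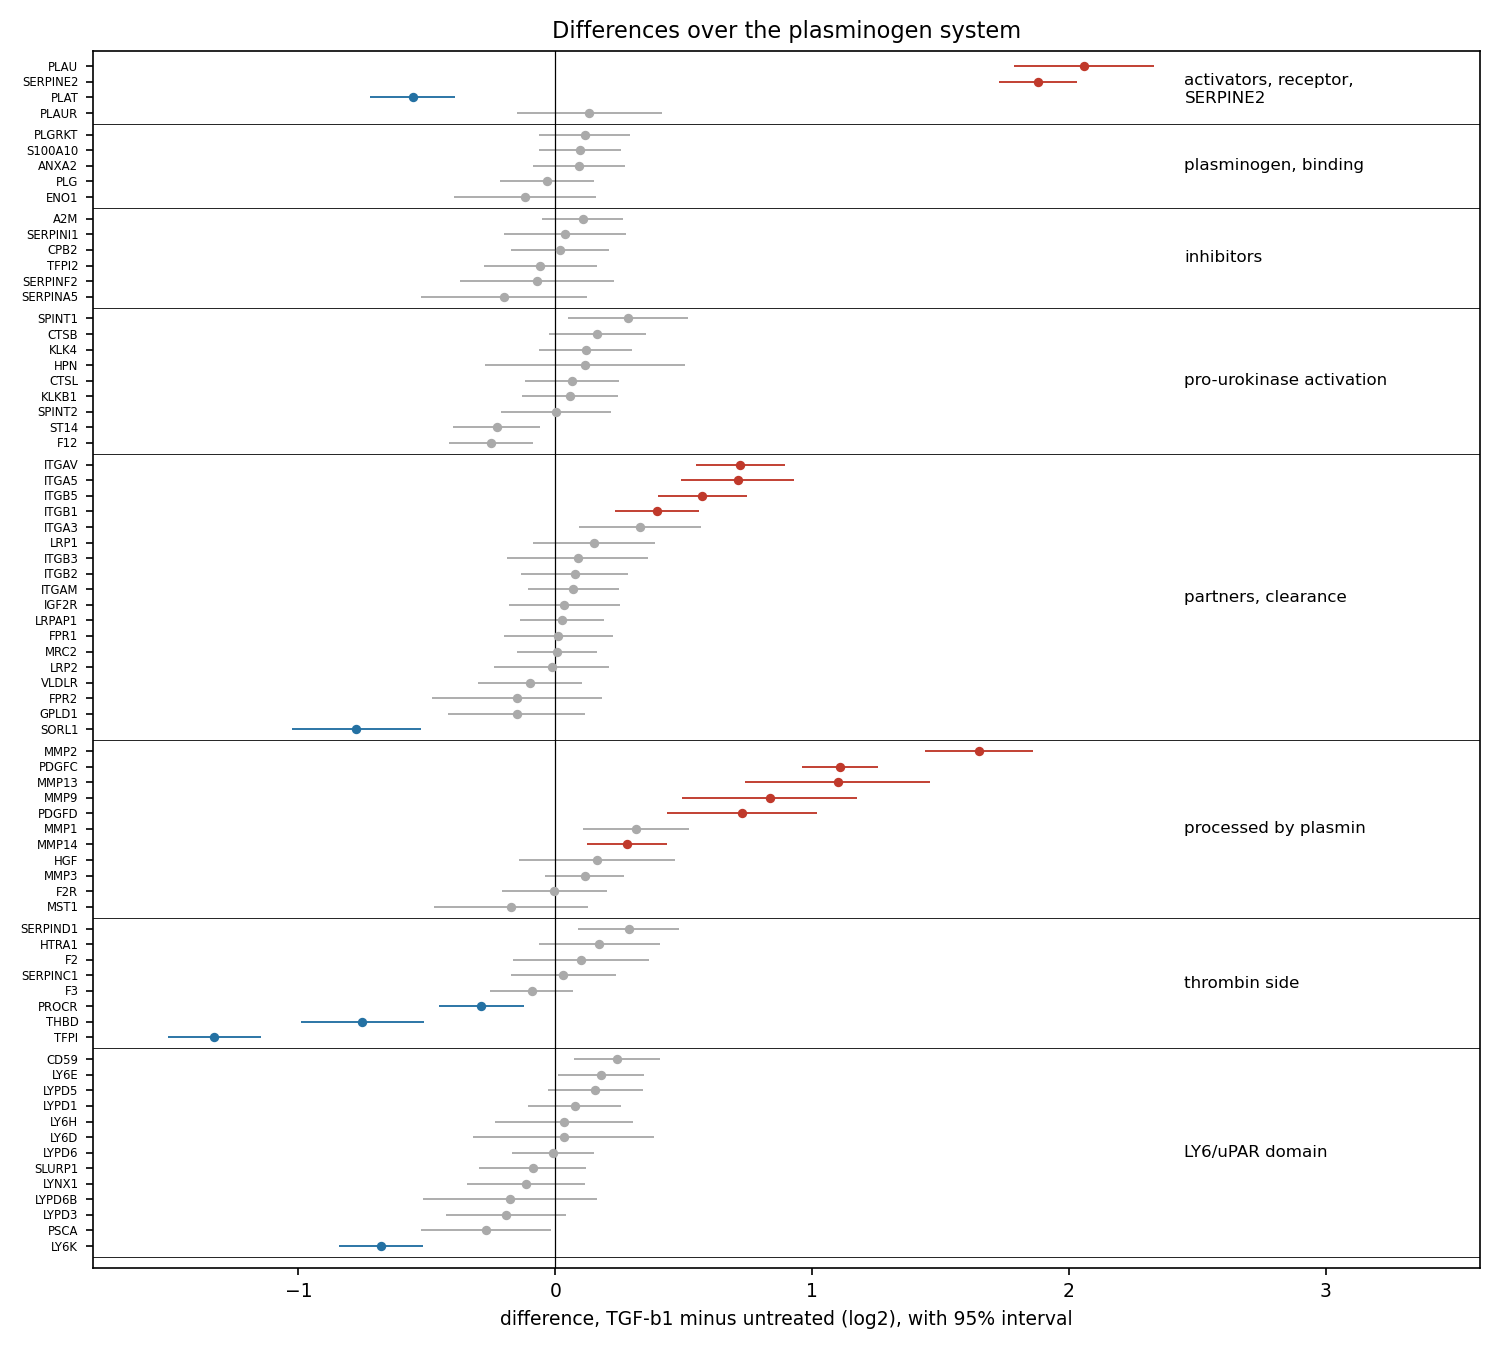
Difference between TGF-β1 and untreated cells (log2, horizontal axis) with its 95% interval for PLAU, SERPINE2, PLAT and PLAUR and for the 70 other plasminogen system genes in 7 lists (rows). Red marks genes called higher, blue genes called lower and grey genes that did not pass; the 10 rises lie among integrin chains and genes processed by plasmin or the activators, and 3 of the 5 falls lie on the thrombin side.

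The treatment and the identity of the cells were checked with other genes. All 5 genes of a TGF-β response check rose: SMAD7 3.17-fold, PMEPA1 3.94-fold, CCN2 4.29-fold, SKIL 2.12-fold and LTBP2 4.43-fold. Of all genes 4.03% were called higher. This list was chosen with earlier results of these data known, so it is no independent check of the treatment. Of 7 epithelial markers 4 were measured and 3 not analysed here, and those measured all lay above the median level of all genes (KRT5, KRT14, EPCAM and CDH1). EPCAM, an epithelial adhesion molecule, was 1.62-fold lower, at 10.5 ± 0.0623 with TGF-β1 and 11.2 ± 0.0378 without (SD, n = 3 each, limma adjusted p = 9.5e-04). KRT14, a basal cell keratin, was 1.71-fold higher, at 8.02 ± 0.144 with TGF-β1 and 7.25 ± 0.105 without (SD, n = 3 each, limma adjusted p = 0.0027), and KRT5 and CDH1 did not pass, with differences of 0.20 and 0.06. PLAU, PLAT and SERPINE2 are also made by stromal cells. Of 8 fibroblast markers COL1A1 rose 2.99-fold and 7 did not pass, and 1 lay above the median level of all genes. The summed fibroblast level was 9.52 to 9.69 (log2) with TGF-β1 and 8.25 to 8.50 without. Most of this sum was COL1A1, at 9.37 with TGF-β1 and 7.80 without, while PDGFRA and LUM had means of 3.59 and 2.49. The dimmer COL1A1 probe sets differed by 1.29, 0.26, 0.04 and 0.07. Of 5 endothelial markers KDR rose and CDH5 fell at mean levels of 2.82 and 3.11, with summed levels of 6.87 to 7.08 with TGF-β1 and 6.91 to 6.96 without. Only 1 of the 5, PECAM1, lay above the median level of all genes, with a mean of 5.67 and a difference of 0.04. Of 5 leukocyte markers 0 passed, with PTPRC at 2.66 and summed levels of 6.89 to 6.96 with TGF-β1 and 6.65 to 6.76 without. The part of other cells in these results was not tested.

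**Figure D5:**
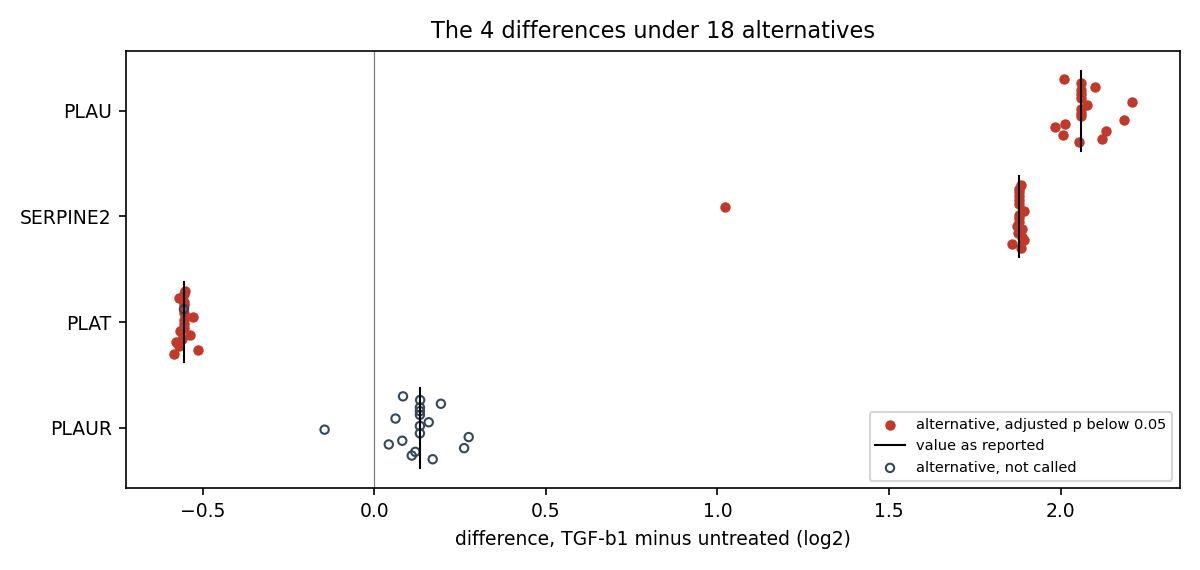
Difference between TGF-β1 and untreated cells (log2, horizontal axis) for PLAU, SERPINE2, PLAT and PLAUR under 18 other ways of processing the values, with filled points where the gene was called and open points where it was not; the black line is the value as reported. PLAU ran from 1.98 to 2.21, SERPINE2 from 1.02 to 1.89, PLAT from -0.58 to -0.51 and PLAUR from -0.14 to 0.28.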

How the data were processed

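The authors deposited 1 log2 value for each probe set and array, made with Affymetrix Expression Console and RMA per the submitters' processing notes, whose versions are not stated. That the scale is log2 was read from the range of 1.57 to 14.5. Arrays have no read depth, and 3 arrays per group limit the precision. Detection calls were not used here.

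Probe sets were named from the platform annotation; 41091 of 54675 carried 1 gene symbol, 1801 several, 11721 none and 62 were controls, and 0 symbols changed through RefSeq. The comparison used limma 3.58.1 under R 4.3.3 (lmFit, then eBayes) without covariate or filter, with p-values adjusted by the Benjamini-Hochberg method over 19775 genes. Within-array differences used exact permutation. The fit was tested on simulated data. No block for array numbers entered the model. The genes named are the 4 members with every probe set, from each list all called genes and up to 3 of the brightest others, the 3 nearest genes per member and the response check; PLG, LRP1, C10orf55 and the markers PDGFRA, LUM and PTPRC are named outside this rule. The members and lists were chosen with earlier results of these data known. Alternatives covered normalisation, filters, the probe set rule, the variance model, array weights, a covariate, a block and left-out arrays.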

Additional observations from a re-analysis of the deposited data

How the results depend on the processing

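PLAU and SERPINE2 kept their direction and their call under all 18 alternatives, with adjusted p-values up to 0.0023. PLAT was lower under all 18 and was called under 17; limma's treat against a fold of 1.2 gave adjusted p = 0.0879 for the same difference of -0.55. PLAUR was called under none, and its difference turned to -0.14 (adjusted p = 0.35) when shared-sequence probe sets were left out, since another probe set then stands for the gene. That setting could not alter the differences of the other 3 genes, whose probe sets stayed the same (PLAU and PLAT have no probe set without the suffix), and averaging could not alter that of PLAT, which has a single probe set. The level filters, the trended robust variance, the replicate block and treat could not alter any of the 4 differences. In those settings only the calls could change, not the directions. Leaving out single arrays gave 1.98 to 2.19 for PLAU, 1.86 to 1.89 for SERPINE2, -0.58 to -0.51 for PLAT and 0.04 to 0.28 for PLAUR. Same-numbered arrays of the 2 groups correlated at 0.181, 0.0392 and 0.0794 in their deviations from group means, and the same-numbered array was the closest match for 4 of the 6. With a replicate block the adjusted p was 9.2e-04 for PLAU, 8.5e-04 for SERPINE2, 0.0174 for PLAT and 0.47 for PLAUR, and 1280 genes were called. The number of genes called, 1680, was 2553 among genes above the median level, 2531 above a level of 5 on at least 3 arrays, 2629 with a trended robust variance, 327 with treat and 628 without both arrays numbered 1. With fewer samples in the fit it came to 1319, 883 and 933 when TGF-β1 array 1, 2 or 3 was left out, and to 878, 766 and 772 for untreated array 1, 2 or 3. Of the 70 plasminogen system genes 15 were called, 9 with treat, 11 to 14 without single arrays, 11 without both arrays numbered 1, 12 without shared-sequence probe sets, 17 and 19 under the filters at the median level and at 5, and 19 with the trended robust variance. The 3 within-array changes kept their sign under all 11 alternatives run for each, but PLAU less SERPINE2, 0.18 as reported, ran from 0.11 to 1.19. Dim probe sets such as 227487_s_at limit what can be said, since RMA is known to compress small signals.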
